A study of Mus musculus with 474 samples.

Results

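The genes described here are the mouse zinc finger genes numbered Zfp900 to Zfp999, that is, every row of the deposited tables whose symbol is Zfp9 followed by 2 further digits. The rule found 59 genes of the 20612 in the tables. They were measured by RNA-seq in skeletal muscle from Diversity Outbred mice, a stock bred from 8 inbred founder lines so that each animal has its own mosaic of their genomes. Each animal, female or male, gave 1 library, and the title number read here as outbred generation (17, 18, 19, 21 or 23) gave between 45 and 50 animals of each sex. That reading is an assumption, since the study's methods name generations 18, 19 and 21 and neither 17 nor 23, and it bears on every comparison of generations. All animals shared the same treatment, a high-fat, high-sugar diet begun in young mice and kept until harvest as adults, and the study's methods name the muscle as gastrocnemius. There is no untreated group, so the comparisons are between the sexes, between generations, between runs of library numbers and between animals. Summed counts were 35.9 to 165.7 M (M for 1e+06 counts) per library, with a median of 79.3 M.

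Most genes of this number series encode proteins built from tandem Cys2-His2 zinc fingers, each finger a small fold that holds a zinc ion and reads a few bases of DNA. Many mouse proteins of this kind also carry a KRAB domain, which recruits the corepressor Trim28 and, through it, the histone methyltransferase Setdb1, so that the bound DNA is packed into silent chromatin. They are best known for silencing transposable elements. Their genes multiply by local duplication and lie in clusters on a few chromosomes, where the number and sequence of copies differ between mouse strains.

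Of the 59 genes, 58 were annotated as protein coding and 1, Zfp939, as a transcribed pseudogene. They lay on 12 chromosomes, none of them X or Y. Members whose starts lay within 4 Mb of the next were joined into 7 clusters that held 45 of them, and the other 14 stood alone. The positions given are those of the deposited annotation (GRCm38), which for every member had the same start as GENCODE M21. The cluster on chromosome 4 (chr4:145510759-147848366) held 14 members, namely Zfp933, Zfp978, Zfp979, Zfp980, Zfp981, Zfp982, Zfp984, Zfp985, Zfp986, Zfp988, Zfp990, Zfp991, Zfp992 and Zfp993. The cluster on chromosome 17 (chr17:21567008-22867134) held 10, namely Zfp942, Zfp943, Zfp944, Zfp945, Zfp946, Zfp947, Zfp948, Zfp983, Zfp994 and Zfp995. The cluster on chromosome 2 (chr2:175372436-178078476) held 8, namely Zfp931, Zfp965, Zfp966, Zfp968, Zfp970, Zfp971, Zfp972 and Zfp973. Zfp936, Zfp939, Zfp975, Zfp976 and Zfp977 formed a cluster of 5 on chromosome 7, and Zfp930, Zfp961, Zfp963 and Zfp964 one of 4 on chromosome 8. Zfp934 with Zfp935 on chromosome 13, and Zfp940 with Zfp974 on chromosome 7, were clusters of 2. The single members were Zfp932, Zfp937, Zfp938, Zfp949, Zfp950, Zfp951, Zfp952, Zfp953, Zfp954, Zfp956, Zfp957, Zfp958, Zfp959 and Zfp960. Zfp932 is known to repress endogenous retroviruses in embryonic stem cells.

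How alike the copies are bears on many of the values that follow. Translated from the longest annotated coding sequence, the 58 coding members had 0 to 21 fingers, with a median of 11, and Zfp974 had the most. Zfp935, Zfp957 and Zfp972 had none that matched the spacing of cysteines and histidines that was searched. Zfp966 and Zfp968 encoded the same protein (identity 100%), and so did Zfp965 and Zfp973 (100%). Identity was counted over the whole alignment, gaps included, so that a difference in length lowers it. Zfp991 and Zfp992 differed at few positions (98.9%), and Zfp947 and Zfp995 followed at 90.4%. For Zfp965, Zfp966, Zfp968 and Zfp973, every run of 100 coding bases, the read length in the study's methods, also stood in another member. Over the longest coding transcript, untranslated ends included, the share of such runs was 100% for Zfp965, 98.6% for Zfp968, 74.9% for Zfp973 and 64.3% for Zfp966, and it was 68.5% for Zfp993 and 57.2% for Zfp991. For 30 of the 58 coding members it was 0. Each member was compared with the other members only, so runs shared with other genes were not counted. Founder alleles were not compared, so the runs describe the reference transcripts only. The authors' software divides reads that align to several copies by expectation-maximisation, which can leave fractions. Counts that were whole to 6 decimals made up 68.6% of all deposited counts and 30.6% of the members' counts, and the same tolerance holds for each share of whole counts below. The median member had whole counts in 4.64% of libraries, and the median of the other Zfp genes in 99.4%.

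The promoters of the pair of members that varied together most closely, Zfp968 and Zfp966 on chromosome 2, are printed because the copies are alike there too. The windows run from 250 bases before to 50 after the annotated start (RefSeq, GRCm38.p6), Zfp968 at chr2:175372186-175372485 on the plus strand and Zfp966 at chr2:175931051-175931350 on the minus strand. Aligned with a shift of 26 bases, the shared stretch was identical at 100% of its bases. Capitals mark the word CCAAT, or its reverse complement ATTGG, the sequence bound by the factor NF-Y.
Zfp968: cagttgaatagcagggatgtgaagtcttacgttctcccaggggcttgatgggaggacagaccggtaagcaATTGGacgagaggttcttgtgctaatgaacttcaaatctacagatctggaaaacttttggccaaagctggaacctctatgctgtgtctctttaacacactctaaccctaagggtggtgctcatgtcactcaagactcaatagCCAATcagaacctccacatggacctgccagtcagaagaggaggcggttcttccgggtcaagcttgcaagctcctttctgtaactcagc
Zfp966: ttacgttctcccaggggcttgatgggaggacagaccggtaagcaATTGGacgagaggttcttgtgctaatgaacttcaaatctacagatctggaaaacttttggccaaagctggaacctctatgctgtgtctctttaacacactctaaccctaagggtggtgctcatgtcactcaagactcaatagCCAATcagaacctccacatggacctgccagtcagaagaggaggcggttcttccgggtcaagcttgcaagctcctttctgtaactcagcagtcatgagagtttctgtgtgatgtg
Promoter windows were found for 51 members. CCAAT on either strand stood in 38 of the 51 (74.5%), in 45.0% of 280 other Zfp promoters and in 37.9% of all 27025 promoters of the same length. The word TATAAA, searched on both strands, stood in 0 of the 51, in 6.79% of other Zfp promoters and in 14.2% of all. The word GGGCGG, also on both strands, stood in 37.3% of member promoters, in 45.7% of other Zfp promoters and in 35.9% of all. The words were counted separately, and ATTGG and GGGCGG can share the letters GG. A match is a description of these windows and not a binding site.

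Members were expressed at low to moderate levels. The median over libraries was at least 1 CPM (a count scaled to 1e+06 counts of its library) for 40 of 59 members and at least 10 CPM for 6 of them. Per kilobase of exon, Zfp970 (ENSMUSG00000078866, chromosome 2 cluster) was highest. Its level was 10.9 CPM in the lowest library, 33.1 in the median and 105.1 in the highest, a median of 15.2 CPM per kb. Zfp966 (ENSMUSG00000089756) ran from 1.20 through a median of 15.9 to 80.4 CPM (5.32 CPM per kb). Zfp971 ran from 2.56 through 11.2 to 26.3 CPM (5.22 CPM per kb), and Zfp973 from 0.344 through 11.5 to 43.5 CPM (4.23 CPM per kb). These 4 all belong to the chromosome 2 cluster, and the next in order, Zfp943 of chromosome 17, stood at 3.33 CPM per kb. The lowest 4 were Zfp988, Zfp936, Zfp981 and Zfp986, with medians of 1.07, 2.01, 4.02 and 2.82 counts per library. Zfp988 and Zfp936 did not pass the filter on low counts, which left 57 members for the tests. A count of 0 allows a level of up to 3 counts, or 0.0378 CPM in a library of median size, and this covers counting error only.

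**Figure D1:**
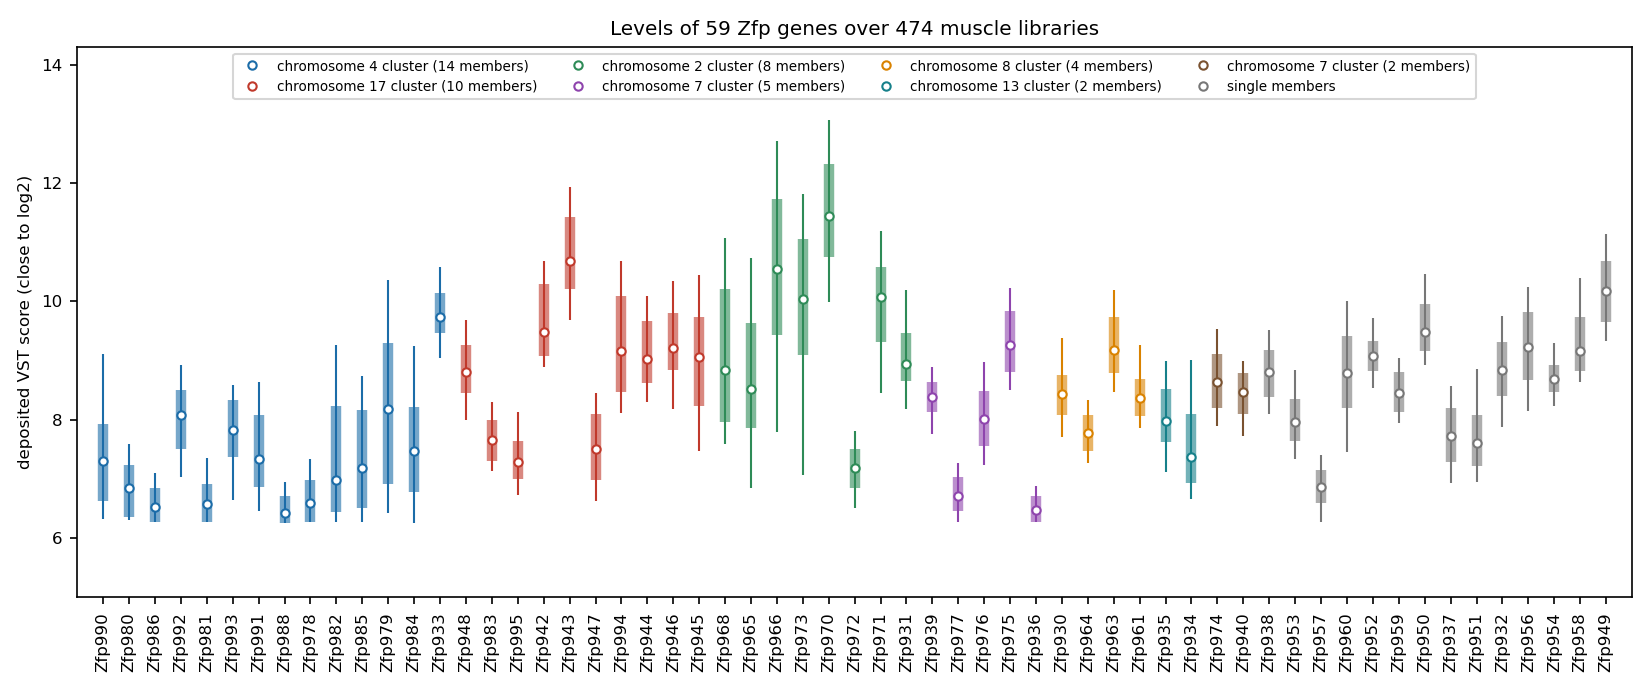
Deposited VST score (variance stabilising transform, close to a log2 level) of each of the 59 genes over all libraries, grouped by cluster and in chromosome order within a cluster. Circles are medians, thick bars the 5th to 95th percentile and thin bars the lowest to highest library. Zfp966, Zfp968 and Zfp973 in the chromosome 2 cluster and Zfp979 and Zfp982 in the chromosome 4 cluster have the longest thick bars, and those of Zfp939, Zfp952 and Zfp954 are among the shortest.

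The members varied more between animals than most genes of like level. After removal of sex and generation, the standard deviation (SD) of each member's VST was ranked among the 500 tested genes nearest in mean VST. The median member stood at percentile 70.2, the median of other Zfp genes at 39.8 and the median of all genes at 50.2. Of the 57 members, 9 (15.8%) stood at or above percentile 90, where 9.99% of all genes and 7 other Zfp genes (2.21%) did. The coefficient of variation of CPM ran from 14.6% to 125.1% over members, with a median of 37.2%.

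The 6 members with the highest rank were Zfp966 (percentile 97.8), Zfp968 (96), Zfp970 (95.4), Zfp973 (95.2), Zfp979 (95.2) and Zfp982 (93.6). The first 4 of them are the chromosome 2 copies. Zfp968 (ENSMUSG00000078898) was at 0.856 CPM in the lowest library, 3.97 in the median and 24.6 in the highest. Its 95th percentile library was 8.63 times its 5th percentile library, and for Zfp966 that ratio was 6.10. Zfp979 ran from 0 through 1.61 to 12.8 CPM, with 8 libraries under 1 count. Zfp982 ran from 0 through 0.235 to 5.80 CPM, and 9 libraries were under 1 count. The 3 steadiest tested members were Zfp939 (percentile 2.8), Zfp954 (4.4) and Zfp952 (11.2), none of which stood in the 3 largest clusters. Zfp952 ran only from 2.72 through 4.78 to 8.0 CPM, and Zfp954 from 2.08 through 3.40 to 6.04.

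Because reads of identical copies are divided by an algorithm, the near-identical pairs were also summed, an analysis added after the data were seen. The sum of Zfp966 and Zfp968 ran from 2.27 through 19.8 to 99.3 CPM and stood at SD percentile 98.2 on the log2(CPM + 0.5) scale, against 96.6 and 95.2 for each alone. The share given to Zfp968 was 20.1% in the median library and 11.7% to 51.7% over all. The sum of Zfp965 and Zfp973 stood at percentile 97.6. Both sums ranked above each of their parts, while those of the other two pairs did not. For Zfp991 and Zfp992 the sum ranked below both. Singly they stood at percentiles 81.6 and 68.6, while their sum, which ran from 0.735 through 2.25 to 5.85 CPM, stood at 53.2. The share of the sum given to Zfp992 ran from 14.7% to 99.3%. The sum of Zfp947 and Zfp995, at percentile 62.4, ranked between its parts, which stood at 74.8 and 35.6.

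Members of a cluster varied together more often than neighbouring genes in general. Over all pairs within clusters, Pearson r across libraries after removal of sex and generation had a median of 0.27. In 82 pairs r was at least 0.3 and in 3 at most -0.3, together 46.7% of pairs. Among 793621 pairs of other genes whose starts lay within the same 4 Mb and whose bodies did not overlap, 7.08% were as far from 0, and among 1269 such pairs of other Zfp genes 25.4%. A permutation test (2-sided, 100000 permutations of libraries within sex and generation, Benjamini-Hochberg over these pairs) called 18 pairs negative and most of the others positive. Calls were not counted for pairs of other genes, so no share stands beside these counts. The median absolute r was 0.286 within clusters, 0.083 for neighbouring genes other than members and 0.161 for neighbouring other Zfp genes. The cluster pairs come from 45 genes and the same libraries, so they are not independent. For pairs of cluster members given below with both r and Spearman's rho but no p, each had an unadjusted p of 1e-05, the smallest the permutations can give, which adjusts to at most 1.64e-05.

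The closest pair lay in the chromosome 2 cluster. Zfp966 and Zfp968, which lie 546.4 kb apart on opposite strands, had r = 0.92 and rho = 0.927, and r was between 0.911 and 0.94 within each of the 2 blocks of library numbers described below. Zfp966 and Zfp973 had r = 0.853 (rho = 0.823), and Zfp965 and Zfp973 had r = 0.849 (rho = 0.873). Leaving out the 2 libraries farthest from the median of the first gene gave 0.918 for Zfp966 with Zfp968 and 0.844 for Zfp966 with Zfp973. The protein of Zfp973 is shorter than that of Zfp966, and every coding run of 100 bases in either gene is shared with another member, as given above. Not every neighbour moved with this group. Zfp971, whose protein is 81.2% identical to those of Zfp966 and Zfp968, had r = -0.271 with Zfp973 (rho = -0.196, permutation test, adjusted p = 4.75e-05 for rho), the lowest of the cluster. Over the 28 pairs the median r was 0.404, and 15 pairs were at least 0.3.

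The chromosome 4 cluster held 62 pairs called positive and 12 called negative by the permutation test, with no share of other gene pairs to set beside them. Its median r over 91 pairs was 0.196, with 28 pairs at least 0.3 and all 3 of the pairs at most -0.3 seen among the members. Zfp982 took part in those 3 pairs, and its levels fell into separate groups of libraries. Without it, 78 pairs had a median of 0.238, with 26 at least 0.3 and 0 at most -0.3. The mixture described next also split Zfp986 and Zfp988, but there the lower group was the libraries under 1 count (32.3% and 46.4% of libraries), so that the count floor set the split. Without those genes as well, 55 pairs had a median of 0.237, with 18 at least 0.3 and 0 at most -0.3. Zfp979 and Zfp985, on opposite strands with starts 58.7 kb apart, had the highest r, 0.819 (rho = 0.828, 0.808 and 0.842 within the blocks). A 2-component normal mixture put 36.7% of libraries in an upper group of Zfp982, with the group means 1.03 VST units apart and an Ashman D of 3.19, where values over 3 were taken as separate. Its counts were whole in 91.8% of libraries. For Zfp982, r is therefore given within each group. With Zfp993, the partner in the lowest pair, r was 0.03 within the lower group and -0.27 within the upper group. For the other partners at or below -0.3, r was 0.38 and -0.13 with Zfp990 and -0.03 and -0.11 with Zfp981. With Zfp984 r was 0.52 and 0.72. The scatter of Zfp982 and Zfp993 shows the separate groups along the Zfp982 axis. Zfp991 and Zfp992, which encode nearly the same protein, had r = -0.298 (rho = -0.307), and r was -0.391 and -0.00696 within the blocks.

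**Figure D2:**
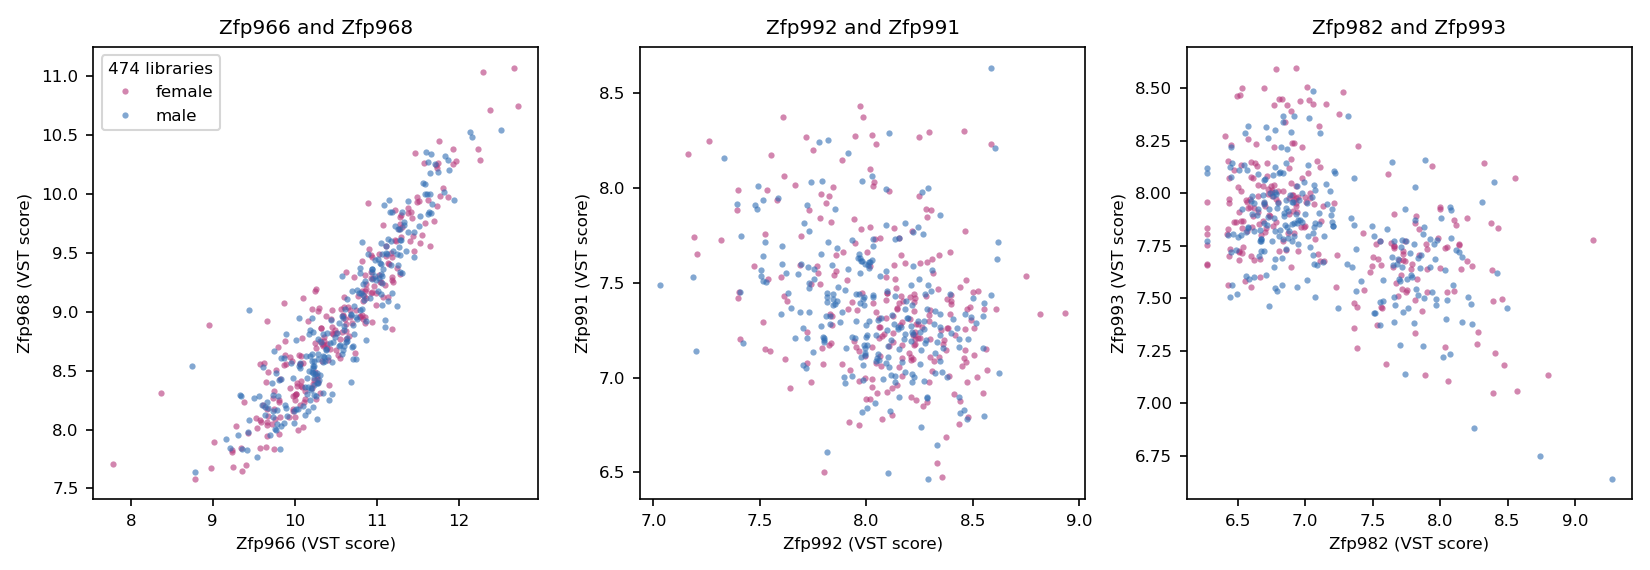
VST scores of 3 pairs of genes, 1 point per library, coloured by labelled sex. Left, Zfp966 and Zfp968 (r = 0.92 after sex and generation) lie along 1 band. Middle, Zfp992 and Zfp991 (r = -0.298). Right, Zfp982 falls into a lower and an upper group, the upper with 36.7% of libraries.

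The chromosome 17 cluster was the most uniform before the AT-rich minus GC-rich level described below was removed. With that level as a covariate its median r was 0.147, beside 0.312 on chromosome 2. After sex and generation alone, 36 of the 45 chromosome 17 pairs had r of at least 0.3, and the median was 0.472. The permutation test called 44 positive, again with no share of other gene pairs beside the count. Without Zfp942, whose levels are described below, 27 of 36 pairs had r of at least 0.3 (median 0.408). Zfp947 and Zfp994 had r = 0.855 (rho = 0.837, 0.834 and 0.884 within the blocks). The pair with the highest pooled r was Zfp942 with Zfp943, but Zfp942 fell into a larger group and one of 78 libraries (Ashman D 3.06), within which r was 0.73 and 0.72. Zfp942 with Zfp944 gave 0.67 and 0.68 in the same groups. The lowest pair was Zfp945 with Zfp995 (r = 0.0191, rho = -0.00497, adjusted p = 0.695 for r and 0.924 for rho). Zfp942 and Zfp943 stand head to head, with annotated 5′ ends 88 bases apart (at 21962464 and 21962552 of chromosome 17), and their promoter windows overlap. This pair was picked out after its values were seen. Other members with a 5′ end within 1 kb of another gene's on the opposite strand had r from near 0 to high values, as descriptions with no test. Zfp944 and Zfp758, 53 bases apart, had r = 0.829, Zfp932 and 1010001B22Rik r = 0.257, Zfp953 and Gm17039, 66 bases apart, r = 0.0565, Zfp954 and Gm44697 r = 0.093, and Zfp939 and Gm5590 r = -0.0129. With the AT-rich minus GC-rich level described below as a covariate, r was 0.489 for Zfp944 and Zfp758 and 0.408 for Zfp932 and 1010001B22Rik, and within 0.1 of 0 for the other three. The Zfp942 window (RefSeq, GRCm38.p6, chr17:21962415-21962714, minus strand) is printed as the shared start region, with GGGCGG in capitals.
Zfp942: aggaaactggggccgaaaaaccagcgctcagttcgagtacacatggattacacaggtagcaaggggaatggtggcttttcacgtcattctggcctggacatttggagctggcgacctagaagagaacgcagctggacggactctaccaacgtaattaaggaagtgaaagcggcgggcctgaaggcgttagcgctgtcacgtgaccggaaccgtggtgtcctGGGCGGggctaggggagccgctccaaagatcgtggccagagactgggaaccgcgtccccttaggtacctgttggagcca

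In the smaller clusters, Zfp975 and Zfp976 on chromosome 7 had r = 0.681 (rho = 0.665), and the lowest pair there, Zfp936 with Zfp976, included Zfp936, which did not pass the count filter. The mixture split Zfp936 too, into the libraries under 1 count (30.4%) and the others, a split set by the count floor. On chromosome 8 the highest pair was Zfp930 with Zfp961 (r = 0.287, rho = 0.253, 0.196 and 0.47 within the blocks) and the lowest Zfp961 with Zfp963 (r = -0.000377, rho = -0.0116, adjusted p = 0.994 and 0.821). Zfp963 shares 40.8% of its exon bases with another annotated gene, so part of its count may belong to that gene. Over pairs with coding sequences, protein identity and r had a Spearman rho of 0.147 as a description over pairs, with 0.558 on chromosome 17, 0.36 on chromosome 2 and 0.00534 on chromosome 4.

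Members on different chromosomes also varied together. Over 1464 such pairs the median r was 0.157, and 19.7% of pairs reached 0.3, where 2.13% of pairs of tested genes that are not members and 8.16% of pairs of other Zfp genes on different chromosomes did. The base composition of the transcripts was set beside this. The members are AT-rich: the longest annotated transcript had a median GC content of 38.6% over the 59 members, 45.4% over other Zfp genes and 49.3% over all tested genes. For each library, the mean VST of genes with a GC content over 54.1% was taken from that of genes under 44.6%, with members left out, and centred. This AT-rich minus GC-rich level ran from -0.281 to 0.65 over libraries and was added after the data were seen. Among 59 members, 54 had a positive r with it at an adjusted p under 0.05 (the same permutation test, adjusted over 59) and 1, Zfp954, a negative one. Only members were put to this test, so no share of all genes stands beside the count. The median member, at 38.6% GC, lies under the 44.6% limit of the AT-rich genes, and genes of like GC content were not compared. In 55 members r was positive within both blocks. Zfp946 (r = 0.812, rho = 0.744, 0.804 without the 2 farthest libraries, 0.779 and 0.861 within the blocks) and Zfp944 (r = 0.797, rho = 0.699) were the highest of the members not split into groups. For Zfp942, r was 0.652 within its lower group and 0.795 within its upper group. Zfp970 stood at r = 0.178. Of 57 tested members, 68.4% had r of at least 0.3 with this level, against 35.3% of other Zfp genes and 14.6% of all genes.

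**Figure D3:**
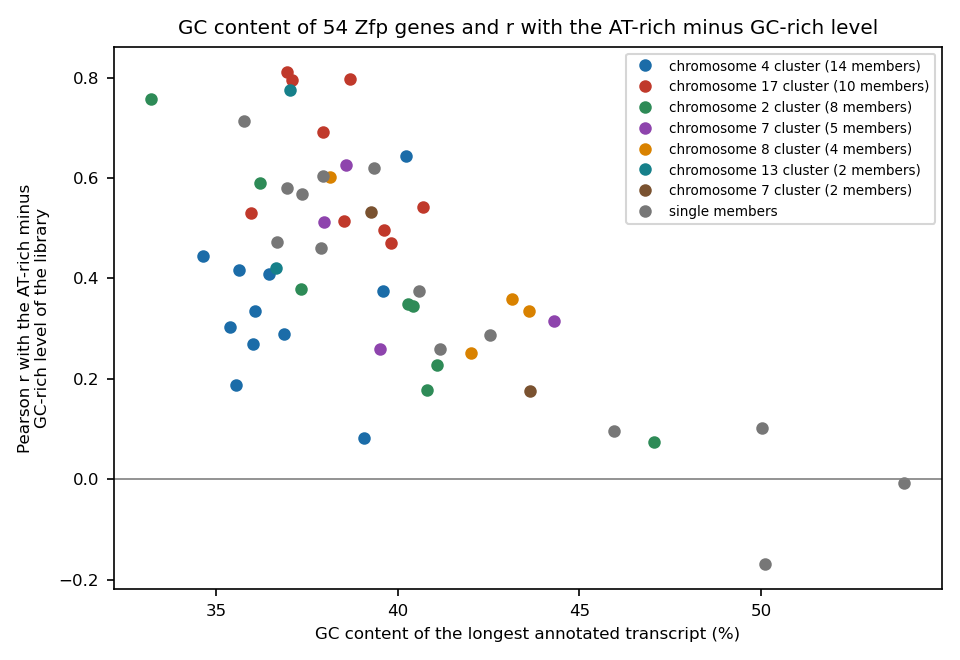
GC content of the longest annotated transcript (percent) against Pearson r of the VST with the AT-rich minus GC-rich level over all libraries, coloured by cluster, for the 54 members that the mixture did not split (without Zfp936, Zfp942, Zfp982, Zfp986 and Zfp988). Zfp943, Zfp944 and Zfp946 of the chromosome 17 cluster lie near the top (r = 0.794 to 0.812), and Zfp954 and Zfp956, with GC contents of 50.1% and 53.9%, lie at or below 0.

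With that level as a further covariate, the co-variation between chromosomes nearly went and the local co-variation stayed in part. The median r of pairs on different chromosomes was 0.0293, and 7 of 1464 pairs (0.478%) were at least 0.3, where 0.756% of pairs of genes that are not members were. Within clusters the median was 0.112, and 56 pairs (30.8%) were at least 0.3 from 0, where 3.71% of the neighbouring pairs of genes that are not members and 6.07% of those of other Zfp genes were. On chromosome 2 the 15 pairs at or above 0.3 were still so, Zfp966 with Zfp968 and Zfp965 with Zfp973 both at r = 0.908, though Zfp965 with Zfp931 went from 0.608 to 0.306. There 3 pairs were at or below -0.3, where 0 had been, all with Zfp971: Zfp965 went from -0.155 to -0.471, Zfp973 from -0.271 to -0.382 and Zfp968 from -0.145 to -0.301. On chromosome 17 the pairs at or above 0.3 went from 36 to 12 and those at or below -0.3 from 0 to 2 (Zfp943 with Zfp945 at -0.305, Zfp995 with Zfp945 at -0.333), while Zfp947 with Zfp994 kept 0.805 and Zfp942 with Zfp943 had 0.618. Zfp942 no longer fell into separate groups (Ashman D 1.61), whereas Zfp982 did (3.75). On chromosome 4 the pairs at or above 0.3 went from 28 to 17 and those at or below -0.3 from 3 to 6. Zfp979 with Zfp985 there had r = 0.811, and Zfp991 with Zfp992 -0.424. The first 10 principal components of all genes that are not members gave like values, with a median of 0.115 and 55 pairs.

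**Figure D4:**
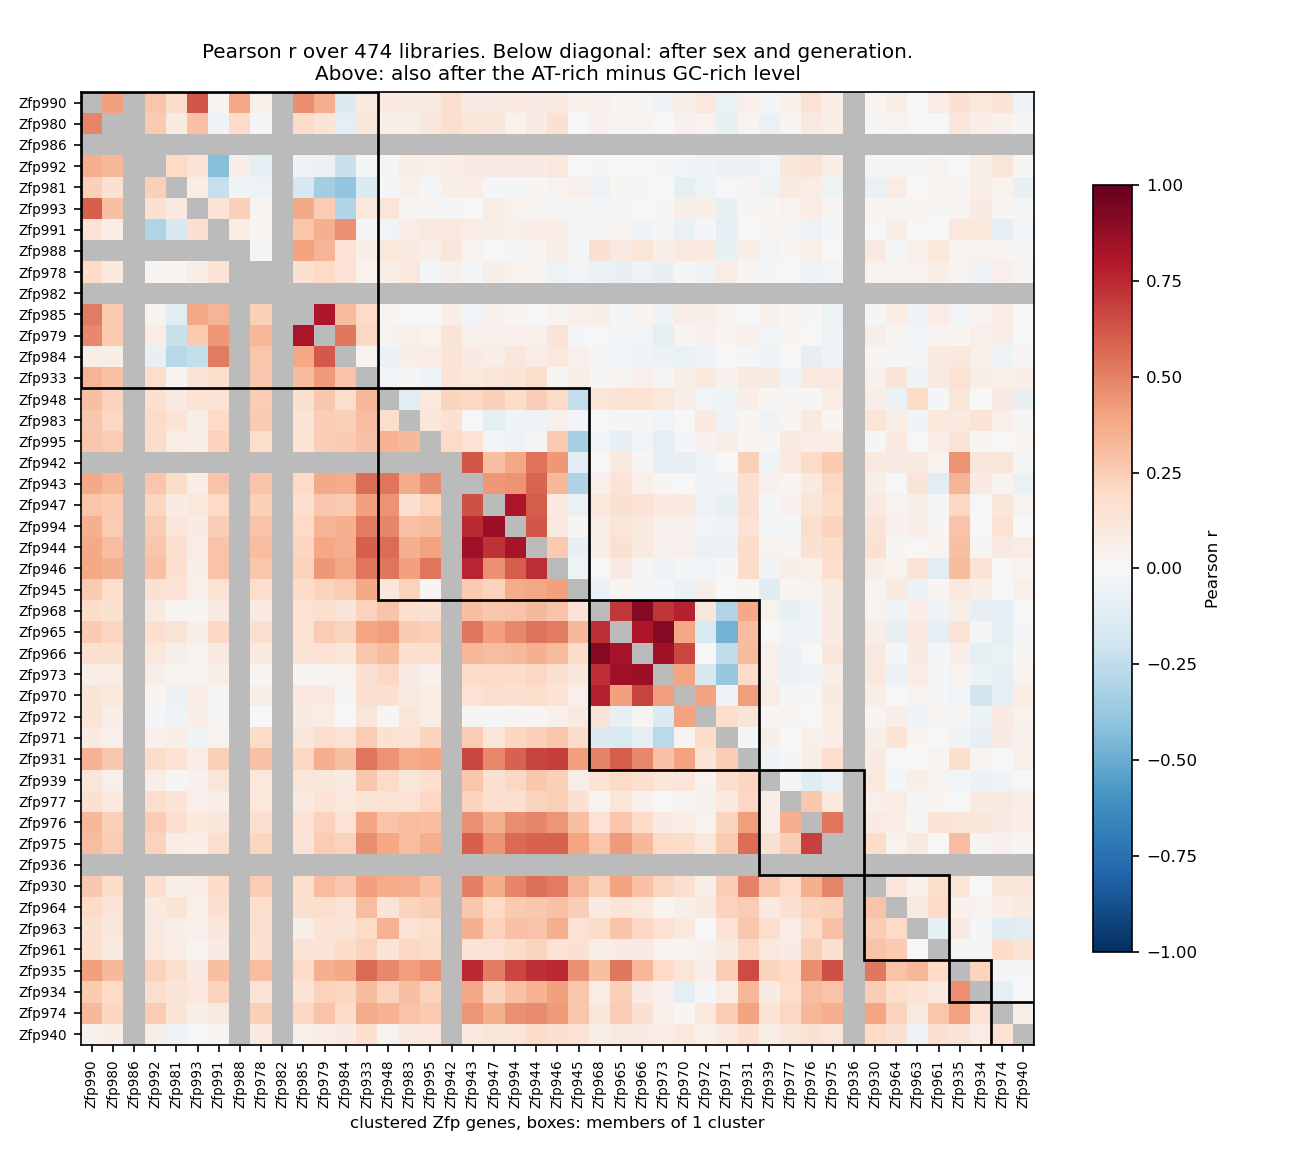
Pearson r between the 45 clustered members over all libraries, with boxes around the 7 clusters. Clusters are ordered by number of members, and members by position within a cluster. Below the diagonal r is after sex and generation, above it also after the AT-rich minus GC-rich level. Grey marks the diagonal and members split by the mixture, Zfp942 and Zfp988 only below it. Below, most pairs of different clusters are positive. Above, colour remains inside the boxes of chromosomes 4, 17 and 2, both positive and negative.

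Library numbers, read from the sample titles, broke at 1 gap of more than 3, and the libraries on either side were taken as 2 blocks, the first of 96 libraries (44 of them from females). The labels do not say what the numbers stand for. With edgeR's quasi-likelihood test (Benjamini-Hochberg over all 18823 genes tested), 43 of 57 members (75.4%) differed between the blocks at an adjusted p under 0.05, where 65.9% of other Zfp genes and 45.3% of all genes did. All 43 were higher in block 1, against 74.2% of the other Zfp genes called and 49.3% of the 8527 genes called in all. The fitted difference was largest for Zfp979 (0.78 on the log2 scale, adjusted p = 1.94e-07), Zfp978 (0.72, 0.000569), Zfp965 (0.70, 4.89e-14), Zfp990 (0.63, 3.82e-05) and Zfp980 (0.55, 0.000291), and 4 of these 5 lie in the chromosome 4 cluster. Mean Zfp979 was 3.11 CPM in block 1 and 1.81 in block 2, and mean Zfp965 4.48 and 2.76. The AT-rich minus GC-rich level was also higher in block 1, at 0.121 ± 0.184 (SD, n = 96), than in block 2, at -0.0306 ± 0.0924 (SD). With that level as a covariate the test called 1 of 57 members, Zfp950 (0.09, adjusted p = 0.0161), 12.6% of other Zfp genes and 17.2% of all genes. Runs of 96 library numbers in place of the blocks, a split chosen after the numbers were seen, gave 41 calls. The blocks took a median of 3.29% of the variance of a member's VST and 10.8% at most (Zfp943).

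A smaller share of members than of all genes was called between the sexes. The same edgeR test with generation as covariate called 12 of 57 members (21.1%), 4 higher and 8 lower in males, where it called 55% of all genes (24.4% higher, 30.6% lower) and 52.4% of other Zfp genes. The median size of the log2 difference was 0.07 for members, 0.07 for other Zfp genes and 0.09 for all genes. A call depends on spread as well as on size, and the members varied more between animals, as given above. Of the 12, Zfp971 differed most, at 2.56, 10.2 and 26.3 CPM in the lowest, median and highest female library and 2.68, 12.1 and 23.8 CPM in males. Male libraries were higher by 0.20 on the log2 scale (SE 0.04, adjusted p = 6.63e-06, edgeR), and the ranges of the sexes overlapped almost fully. The pseudogene Zfp939 was higher in males by 0.13 (SE 0.02, adjusted p = 9.17e-08), with means of 2.38 ± 0.408 CPM (SD) in females and 2.6 ± 0.426 (SD) in males. Zfp933 was higher by 0.11 (SE 0.02, adjusted p = 2.41e-05) and Zfp938 by 0.09 (SE 0.03, adjusted p = 0.0062). Of the 8 lower in males, Zfp983 differed most, with means of 1.02 ± 0.344 CPM in females and 0.931 ± 0.306 in males (log2 difference -0.14, SE 0.04, adjusted p = 0.00473). Zfp993 (-0.12), Zfp976 (-0.12), Zfp949 (-0.12), Zfp961 (-0.10), Zfp948 (-0.09), Zfp963 (-0.08) and Zfp950 (-0.07) followed. Sex took a median of 0.322% of the variance of a member's VST and 6.45% at most (Zfp939). With the total count alone in place of TMM scaling the calls were 19, of which 3 were higher in males, and with scores of adipocyte, macrophage, slow fibre, erythroid, Schwann and mitosis markers as covariates they were 7, of which 4 were higher. The AT-rich minus GC-rich level as a covariate gave 18 calls (31.6%), 5 higher and 13 lower, beside 56.9% of all genes.

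**Figure D5:**
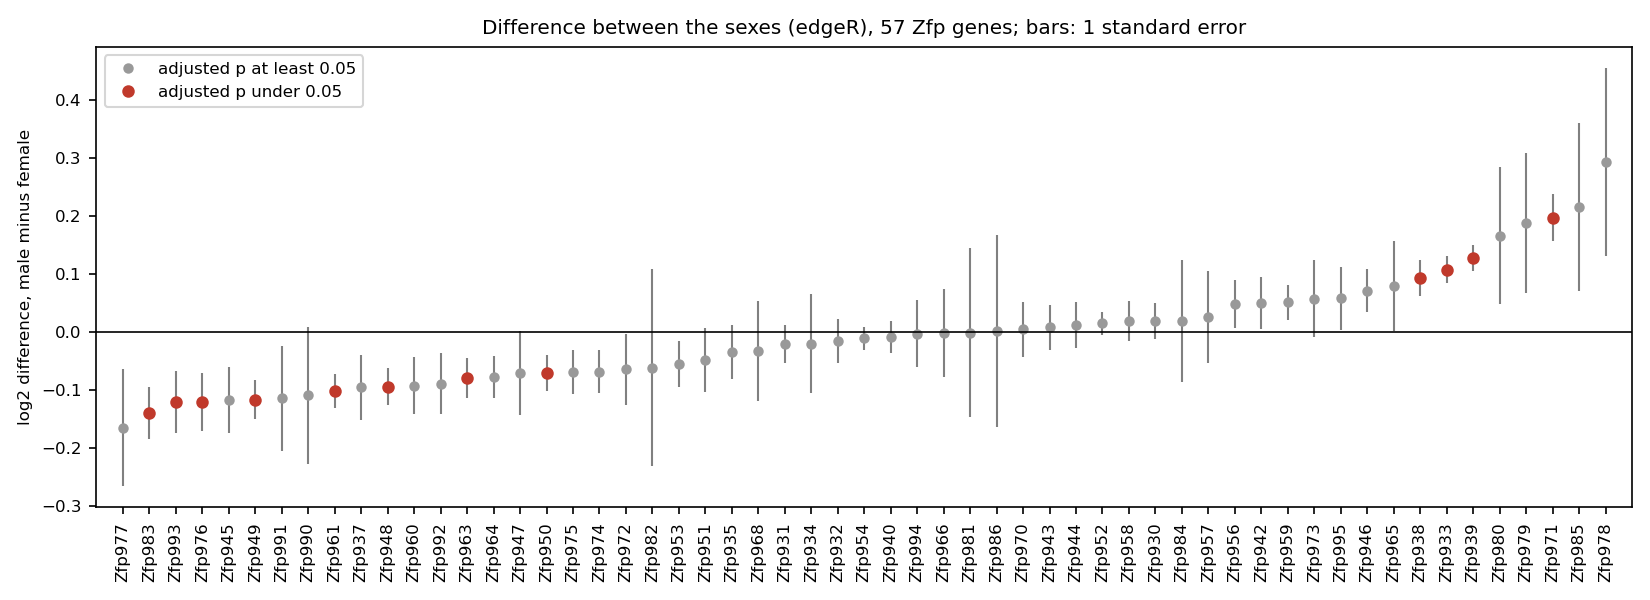
Log2 difference between the sexes (male minus female, edgeR) for the 57 tested members in order of size, with bars of 1 standard error. Red points passed an adjusted p of 0.05. The 4 red points above 0 are Zfp938, Zfp933, Zfp939 and Zfp971, and the 8 below 0 run from Zfp983 (-0.14) to Zfp950 (-0.07).

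Between generations edgeR called 0 of 57 members (4 at an unadjusted p under 0.05), where it called 7.52% of all genes. DESeq2's likelihood ratio test called 1, Zfp970, with a fitted range of 0.28 on the log2 scale (adjusted p = 0.0464). For a sex difference that itself differed between generations edgeR called 0 members (2 at an unadjusted p under 0.05) and limma on the VST also 0, where edgeR called 0.521% of all genes. Generation took a median of 0.851% of the variance of a member's VST.

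A list of genes through which KRAB zinc finger proteins act was described beside them. Of the 30 listed, 29 were in the table and tested, among them Zfp57 and Zfp809, which are KRAB zinc finger genes themselves. Trim28, the corepressor, had a log2 difference between the sexes of -0.01 (adjusted p = 0.492) and Setdb1, the methyltransferase, was lower in males by 0.07 (SE 0.02, adjusted p = 0.000157). In all, 3 were higher and 11 lower in males, together 48.3% of the list, or 51.9% of the 27 without Zfp57 and Zfp809, beside 55% of all genes. Uhrf1, which guides maintenance methylation of replicated DNA, differed most in size (-0.75, SE 0.09, adjusted p = 7.9e-15), and the maintenance methyltransferase Dnmt1 was also lower in males (-0.20, SE 0.02, adjusted p = 3.13e-25). Zfp57, which protects methylation at imprinted genes, and Zfp809, which silences a class of retroviruses, had adjusted p of 0.402 and 0.952, and both also belong to the other Zfp genes. Between blocks 15 of the 29 were called (51.7%, or 14 of the 27, beside 45.3% of all genes) and between generations 1 (3.45%, beside 7.52%). With the AT-rich minus GC-rich level as a covariate, 9 of the 29 were called between blocks (31%), beside 17.2% of all genes.

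All 5 markers of muscle fibre that were listed were present, with summed levels of 78240 to 170800 CPM. In bulk tissue, fewer cells of a type and less RNA per cell cannot be told apart. Slow fibre markers summed to a median of 3176 CPM in females and 2161 in males. With these marker scores as covariates 7 members were called, as given above, and the part of each cell type was not tested. In 5 libraries, 3 labelled female and 2 male, Xist and Y-linked RNA did not match the label. Without them 10 members were called between the sexes, 45 between blocks and 1 between generations.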

How the data were processed

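The members and gene lists were chosen with earlier results of these data known. The libraries numbered 474, of which 235 were from females and 239 from males. RNA was polyA-selected, and the authors deposited expected counts per gene (EMASE through GBRS, on transcripts of 8 founder strains, GRCm38) and a VST score made with DESeq2. The study's methods list batch removal among the steps. Blocks of library numbers still took up to 10.8% of the variance of a member's VST. They also deposited annotation positions. Tool versions and strand use were not given in the sources used here. Estimated counts were rounded, filtered (a minimum count of 10) and scaled by TMM for edgeR's quasi-likelihood test (edgeR 4.0.16, R 4.3.3), with generation or sex as covariate and Benjamini-Hochberg adjustment over 18823 genes. DESeq2 1.42.0 and limma 3.58.1 served as alternatives. Correlations of the 182 cluster pairs used residuals of the VST after sex and generation (Python 3.11.15, numpy 2.4.6, scipy 1.17.1), with 100000 permutations, and mixtures used scikit-learn 1.9.0. On simulated counts the edgeR step was tested with known changes between the sexes in 200 genes. The share called was 0.6 at a log2 change of 0.25 and 0.89 at 0.5, with 7 false calls. Genes named are the extremes of level, spread and co-variation and every member called between the sexes, the others being picked after their values were seen. Blocks of library numbers were cut only at gaps of more than 3. The AT-rich minus GC-rich level, near-identical sums, shared runs of 100 bases and head-to-head promoter were added after seeing the data. The columns of DO048 and DO308, and of DO309 and DO310, exchanged places between the tables and were matched by name. The labels do not say whether animals shared a litter or cage. Kinship and wave, which the study's models included, were not modelled here. The p-values take the animals as independent.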

Additional observations from a re-analysis of the deposited data

How the results depend on the processing

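No paired analysis was possible because each animal has its own number and the groups share none. The 12 calls between the sexes became 2, 2, 0, 2 and 6 in generations 17, 18, 19, 21 and 23 alone and 0 in block 1 alone, where fewer animals were fitted. They were 7 with marker scores as covariates and 19 with the total count alone. Under 9 other settings they were 10 to 18. The 0 calls between generations became 1 with the AT-rich minus GC-rich level, with DESeq2, with marker scores, without generation 19 and without the sex-discordant libraries, and 2 without generation 18. The members concerned were Zfp970, Zfp949 and Zfp948. The 43 calls between blocks became 1 with the AT-rich minus GC-rich level and were 41 to 45 under 3 other settings. The median r within clusters became 0.115 with 10 principal components and 0.112 with the AT-rich minus GC-rich level, and the pairs beyond 0.3 became 55 and 56. The median SD percentile became 59.2 with the AT-rich minus GC-rich level and was 69 to 72 under 4 other settings. For single genes called between sexes or blocks, 4 values changed sign, namely Zfp949 (0.00211) in generation 19, Zfp993 (0.00296) in generation 21, and Zfp976 (0.00757) and Zfp938 (-0.00573) in block 1, all log2 differences, male minus female. In 74 further settings a single gene kept its direction and lost its call. The cause of these changes was not tested.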
